A study of Homo sapiens with 3 samples.

Results

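Hypoxia response and glycolysis genes were examined as a set of 40 named genes, made up of 16 glycolytic enzymes, 6 sugar and lactate transporters and metabolic regulators, 4 genes of the hypoxia-inducible factor (HIF) and its hydroxylases, and 14 HIF targets. Every probe set whose single annotated symbol was one of these names was taken, which gave 125 probe sets for 37 of the 40 genes, among 44988 single-symbol probe sets for 18132 genes on the arrays. The array signals of CA9 and SLC16A3 were not analysed here, and SLC2A3 was named only on 5 probe sets shared with its paralogue SLC2A14. Each gene is read on its brightest probe set (highest mean signal of the 3 arrays) and was kept where that mean reached 5.28, the median over all probe sets on the log2 scale. This left 36 of the 37 genes among 10917 genes, with CA12 left out.

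The cells were KYSE180, an established line from a human squamous carcinoma of the oesophagus, and 3 oligonucleotide arrays were run. Cells carrying a HOTAIR expression vector (LZRS_HOTAIR, delivered with Polyfect), cells given a mixture of 2 stealth siRNAs against HOTAIR (100 pmol, Lipofectamine2000) and control cells had 1 array each, and RNA of the transfected cells was taken after 48 h. The vector arm received an expression construct and the siRNA arm short RNA, each with its own transfection reagent, the control sample carries no label of a mock or control siRNA treatment, and the source name of the siRNA sample speaks of a HOTAIR cell line where its other labels say KYSE180. With 1 array per group there is no replicate check, no SD between samples and no p-value for any difference below.

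HOTAIR is a long non-coding RNA of the HOXC locus, and 0 probe sets were assigned to it, so neither the vector nor the siRNAs could be checked by its level. Squamous epithelial markers were high on each array (7 measured genes, log2 signals from 10.60 to 12.58 in vector, from 10.35 to 13.01 in siRNA and from 10.23 to 13.38 in control cells). Among them the basal keratin genes were lower in vector cells. KRT14 had 12.22 in vector, 13.01 in siRNA and 13.38 in control cells, a vector minus control difference of -1.16 and a vector minus siRNA difference of -0.79. KRT5 had 11.72 in vector, 12.47 in siRNA and 12.64 in control cells, differences of -0.92 and -0.75. These are larger in size than the members' median for vector minus siRNA, and their part in the results was not tested. Fibroblast markers lay between 2.42 and 4.86 in vector, between 2.62 and 4.90 in siRNA and between 2.33 and 5.07 in control cells, all below the filter. Of 5 leukocyte and 4 endothelial markers, only the leukocyte marker CD68, which many carcinoma lines also express, passed the filter, with 6.60 in vector, 6.04 in siRNA and 7.49 in control cells, and its part was not tested either. The deposited signals are log2 values made by RMA. Their array medians were 5.23, 5.25 and 5.27 in vector, siRNA and control cells. The only measurable error is the disagreement between probe sets of one gene. It was pooled over the 5982 genes with several probe sets at or above the filter, leaving dimmer probe sets out. This SD was 0.36 for the vector minus control difference. It was 0.39 for siRNA minus control, and 0.21 where vector and siRNA cells were compared. The median SD over these genes was smaller, at 0.16, 0.18 and 0.11 in the same order. Probe sets of a gene can share probes, and this spread lies between probe sets only, so it does not measure the error between samples. The SDs given below for single genes use all probe sets of the gene, dim ones included.

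Glycolysis splits glucose into pyruvate, which lactate dehydrogenase reduces to lactate when respiration does not take it up. The HIF transcription factors pair an oxygen-regulated alpha subunit with a stable partner and bind short DNA elements near genes of glycolysis, pH control, iron use and vessel growth. In normal oxygen the prolyl hydroxylases mark the alpha subunit for destruction, so its activity is set mainly by protein turnover and its mRNA level is only a partial guide to it. Squamous carcinoma cells in culture run glycolysis at a high rate even in air.

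Between the transfected arms, nearly all members were higher in vector than in siRNA cells. Of 36 members, 33 lay above 0 for vector minus siRNA, where 52% of all genes did, and the median log2 difference was 0.29, against 0.014 over all genes. Among the 33, PFKL, PGAM1, ENO2, TPI1, GAPDH, LDHA, PKM, SLC2A1, HIF1A and P4HA1 differed by less than the pooled probe set spread of 0.21. Against control the arms differed. In siRNA cells 27 of 36 members lay below control, where 58.8% of all genes did, with a median of -0.47 against -0.17 over all genes. In vector cells 21 of 36 lay below control, where 59.2% of all genes did, with a median of -0.11 against -0.18. These are totals of whole cultures, in which less RNA per cell and fewer cells carrying it cannot be told apart.

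Few members were far apart. For vector minus control 5 of 36 were at least 2-fold higher, where 15.2% of all genes were, and 1 was at least 2-fold lower, where 2.05% were. For siRNA minus control 1 was at least 2-fold higher, where 14.9% were, and 2 were lower, where 1.85% were. For vector minus siRNA 3 were at least 2-fold higher, where 1.73% were, and 0 lower, where 1.85% were. At a threshold of 1.5-fold, vector minus control had 7 members higher, where 22.9% of all genes were, and 4 lower, where 19.4% were. For siRNA minus control 4 were higher, where 22.8% of all genes were, and 17 lower, where 18% were. For vector minus siRNA 8 were higher, where 4.74% were, and 0 lower, where 4.95% were. The control array was shared by the first and second comparison, so their values are not independent.

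The siRNA array was the lowest of the 3 for 25 of 36 members, which is 69.4%, where 32.5% of all genes had it lowest. The control array was lowest for 9 members (35.5% of all genes) and the vector array for 2, PFKM and ADM (32% of all genes). From high to low, the order control, vector, siRNA held 19 members, against 27.3% of all genes. The order vector, siRNA, control held 8, against 19.5%, and vector, control, siRNA held 6, against 5.33%.

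**Figure D1:**
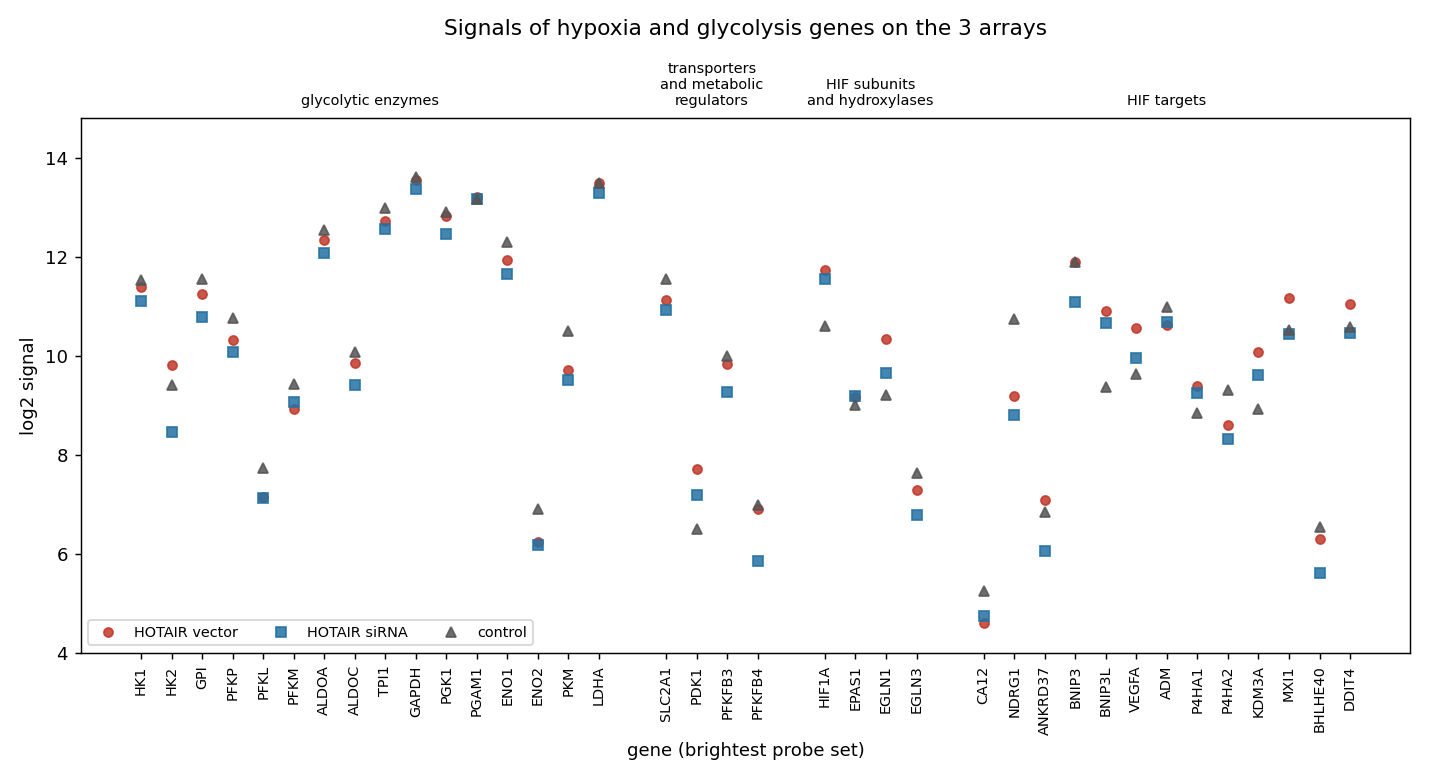
Log2 signal (y axis) of the brightest probe set of each of the 37 measured genes (x axis, by role) on the HOTAIR vector (red circles), HOTAIR siRNA (blue squares) and control (grey triangles) arrays, 1 array each. The siRNA square is the lowest mark for 14 of the 16 glycolytic enzymes, while for HIF1A, EGLN1, BNIP3L, VEGFA and KDM3A the control triangle is lowest.

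HIF binds DNA at a core of ACGTG or GCGTG, so the windows around the starts of the members were read for these letters in RefSeq sequence (GRCh38.p14, 250 bases before to 50 after each start). Windows were found for 36 of the 40 genes, 66 in all, and NDRG1, BNIP3L, VEGFA and SLC2A3 had no match by symbol. These are not the same 36 genes as those kept on the arrays, since CA9, SLC16A3 and CA12 are among them. Either motif was found on either strand in 45 of the 66 windows (68.2%), where 48.4% of all 35116 windows held one. ACGTG was in 39.4% of member windows and 21.4% of all, and GCGTG in 42.4% and 36.5%. EGLN3, P4HA2 and PGAM1 had neither. A match is a description of the letters and not a site of binding.

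The windows of HK2, PFKFB4 and ANKRD37, which passed 2-fold between vector and siRNA cells on the deposited scale, are printed 5′ to 3′ on the strand of the gene, with every ACGTG or GCGTG in capitals, read as CACGT or CACGC where the motif lies on the other strand. Each of the 3 lost that call under at least 1 alternative. With the mean over probe sets the vector minus siRNA difference was 0.91 for HK2, 0.40 for PFKFB4 and 0.57 for ANKRD37. PFKFB4 was also short of 2-fold after repeated quantile normalization (0.987) and cyclic loess (0.998), as was ANKRD37 (0.952 and 0.966). HK2, on the plus strand, has a window for each of 2 starts, at chr2:74833877-74834176 with 3 matches and at chr2:74834920-74835219 with 6, where CACGTG counts once on each strand. PFKFB4 is on the minus strand at chr3:48556754-48557053 with 1 match, and ANKRD37 on the plus strand at chr4:185396591-185396890 with 3.
HK2 upstream window: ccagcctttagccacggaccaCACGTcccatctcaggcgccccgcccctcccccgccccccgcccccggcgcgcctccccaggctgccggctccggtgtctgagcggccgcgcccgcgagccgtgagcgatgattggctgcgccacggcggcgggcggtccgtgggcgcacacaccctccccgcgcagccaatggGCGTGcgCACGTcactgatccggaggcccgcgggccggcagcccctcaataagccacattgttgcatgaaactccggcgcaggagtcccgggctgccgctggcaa
HK2 downstream window: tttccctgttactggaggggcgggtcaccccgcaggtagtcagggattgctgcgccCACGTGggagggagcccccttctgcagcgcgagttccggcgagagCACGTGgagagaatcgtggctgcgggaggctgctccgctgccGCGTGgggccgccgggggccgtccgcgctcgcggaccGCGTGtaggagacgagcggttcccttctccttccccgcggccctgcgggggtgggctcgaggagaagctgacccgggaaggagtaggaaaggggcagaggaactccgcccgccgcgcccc
PFKFB4: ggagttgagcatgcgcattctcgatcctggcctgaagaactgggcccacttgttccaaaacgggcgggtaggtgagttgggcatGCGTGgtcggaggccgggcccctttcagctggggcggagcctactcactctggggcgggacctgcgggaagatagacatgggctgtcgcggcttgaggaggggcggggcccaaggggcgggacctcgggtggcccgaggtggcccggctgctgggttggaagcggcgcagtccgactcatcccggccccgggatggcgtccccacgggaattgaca
ANKRD37: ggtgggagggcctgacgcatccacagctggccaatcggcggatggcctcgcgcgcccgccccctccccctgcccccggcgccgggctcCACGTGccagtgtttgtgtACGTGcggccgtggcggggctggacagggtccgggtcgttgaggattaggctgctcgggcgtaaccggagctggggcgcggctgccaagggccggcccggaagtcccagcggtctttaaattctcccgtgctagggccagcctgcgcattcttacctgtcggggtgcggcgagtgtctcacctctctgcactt

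The downstream HK2 window held CACGTG in 2 places and the ANKRD37 window in 1. PFKFB4 held only a single GCGTG. The 3 genes were printed because they passed 2-fold between vector and siRNA cells, so their difference there is the selection itself. Matches per window ran from 1 for PFKFB4 to 6 in the downstream HK2 window, with 3 in the upstream HK2 window and for ANKRD37. Any relation of the motifs to the signals was not tested.

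Glycolytic enzyme genes had their lowest signal in siRNA cells in 14 of 16 cases, where 32.5% of all genes did. Of the 16 enzymes, 15 were higher in vector than in siRNA cells, with PFKM the exception, where 52% of all genes were. For PFKL, PFKM, PGAM1, ENO2, TPI1, GAPDH, LDHA and PKM the size of that difference was below the pooled probe set spread of 0.21. In siRNA cells 15 were lower than control, with PGAM1 the exception, where 58.8% of all genes were. Their median difference was 0.22 for vector minus siRNA. Against control it was -0.24 in vector and -0.55 in siRNA cells, where the medians over all genes were -0.18 and -0.17. In 12 of the 16 the vector array lay between the others, control being highest, an order that 27.3% of all genes had. At least 1.5-fold lower in siRNA cells against control were 8, where 18% of all genes were. On the deposited scale 0 of the 16 were 2-fold apart from control, but after repeated quantile normalization HK2 (-1.05) and PKM (-1.03) passed 2-fold for siRNA minus control.

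HK2 encodes the inducible hexokinase that commits glucose to the cell and binds mitochondria. It had a log2 signal of 9.82 in vector, 8.46 in siRNA and 9.42 in control cells. Its vector minus siRNA difference of 1.35, or 2.55-fold, was the largest among the 36 members kept. Its other probe set gave 5.64 in vector, 5.17 in siRNA and 5.68 in control cells, a difference of 0.47, so both pointed the same way at different sizes. HK1, the constitutive hexokinase, had 11.39 in vector, 11.10 in siRNA and 11.53 in control cells, and each of its 4 probe sets was lower in siRNA than in vector and in control cells.

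GPI, which isomerises glucose-6-phosphate and had 1 probe set, stood at 11.24 in vector, 10.78 in siRNA and 11.55 in control cells. The phosphofructokinase isoform genes, whose enzymes catalyse the committed step, did not share one pattern. PFKP had 10.31 in vector, 10.07 in siRNA and 10.77 in control cells. PFKL had 7.15, 7.12 and 7.73 in the same order, so the transfected arms were nearly equal, and PFKM, the muscle isoform, had 8.91 in vector, 9.06 in siRNA and 9.43 in control cells and was lowest in vector cells. All 3 isoforms were below control in both arms.

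Among the enzymes of triose formation and use, the aldolase gene ALDOA had 12.34 in vector, 12.07 in siRNA and 12.55 in control cells. ALDOC, the brain-type aldolase gene, had 9.86 in vector, 9.42 in siRNA and 10.07 in control cells, and all 5 of its probe sets placed siRNA below vector cells by 0.20 to 0.65. TPI1, which interconverts the triose phosphates, had 12.73 in vector, 12.57 in siRNA and 12.99 in control cells. Each of these 3 genes had its lowest signal on the siRNA array.

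GAPDH, which oxidises glyceraldehyde-3-phosphate and often serves as a loading reference, had 13.54 in vector, 13.38 in siRNA and 13.62 in control cells. It was thus lower in siRNA than in vector cells by less than the pooled probe set spread, with a vector minus siRNA difference of 0.17 on 1 probe set. PGK1, the first ATP-forming enzyme of the pathway, had 12.83 in vector, 12.46 in siRNA and 12.91 in control cells. All 9 of its probe sets were higher in vector than in siRNA cells, by 0.40 ± 0.069 (SD between 9 probe sets, 1 array each), and all 9 were lower in siRNA than in control cells. PGAM1, a phosphoglycerate mutase gene, had 13.22 in vector, 13.17 in siRNA and 13.16 in control cells on its brightest probe set. Its other 3 probe sets were lower in siRNA than in control cells, by up to 0.63, so the brightest one stood apart from the rest.

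ENO1, the ubiquitous enolase gene, had 11.92 in vector, 11.64 in siRNA and 12.30 in control cells. ENO2, the neuronal enolase gene, had 6.24 in vector, 6.17 in siRNA and 6.89 in control cells, lower than control to a similar extent in both arms. PKM, the pyruvate kinase gene, had 9.71 in vector, 9.51 in siRNA and 10.50 in control cells. Its siRNA minus control difference of -0.99 was just short of 2-fold, and all 6 of its probe sets were below control in siRNA cells. LDHA, which makes lactate from pyruvate, had 13.49 in vector, 13.29 in siRNA and 13.48 in control cells, and all 4 of its probe sets placed vector above siRNA cells by 0.16 to 0.22. For LDHA and GAPDH the siRNA minus control difference (-0.19 and -0.24) was close to the median of all genes (-0.17). Both genes are among the brightest, and when all genes were cut into 4 bins by signal the brightest bin had a median of -0.052. The differences of LDHA and GAPDH were further below 0 than that.

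For 7 of the 16 enzymes, GPI, ALDOA, TPI1, GAPDH, PGAM1, ENO1 and LDHA, every probe set has a name ending in _x_at or _s_at, which marks probes that can match other transcripts. Signal from the other gene copies of these families cannot be separated from that of the named gene here. Among the other members kept, every probe set of EGLN1 and P4HA1 has such a name too.

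**Figure D2:**
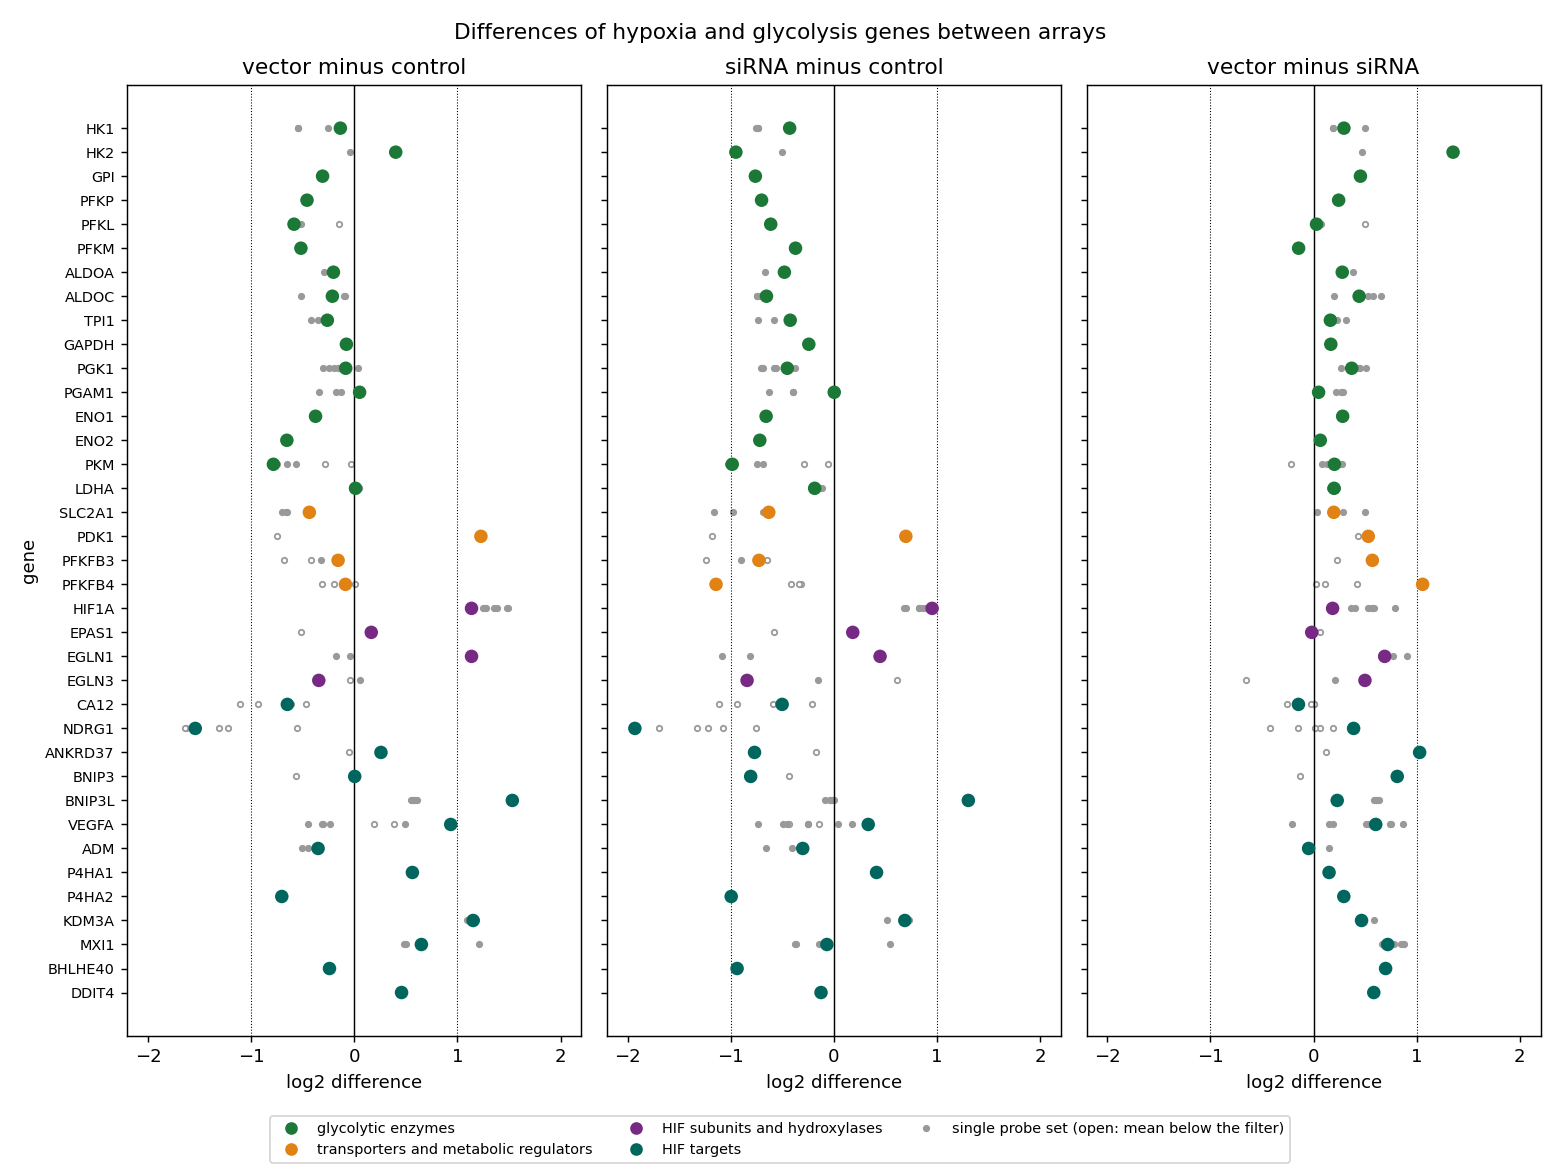
Log2 difference (x axis) of each measured gene (y axis) in 3 panels, vector minus control, siRNA minus control and vector minus siRNA. Large coloured points are the brightest probe set by role, small grey points the gene's probe sets (open where their mean is below 5.28), and dotted lines mark 2-fold. The large points lie above 0 for 33 of 36 kept genes in the vector minus siRNA panel, and HK2, PFKFB4 and ANKRD37 reach the 2-fold line there.

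Genes that feed and steer the pathway followed the enzymes apart from PDK1. SLC2A1, the GLUT1 glucose transporter gene, had 11.12 in vector, 10.92 in siRNA and 11.56 in control cells, and all 4 of its probe sets were below control in both arms. SLC2A3 could be read only on probe sets shared with SLC2A14, whose signals were between 2.40 and 3.93 in vector, between 2.65 and 4.45 in siRNA and between 2.81 and 4.52 in control cells. PFKFB3 and PFKFB4 make fructose-2,6-bisphosphate, the activator of phosphofructokinase. PFKFB3 had 9.83 in vector, 9.26 in siRNA and 9.99 in control cells, and all 4 of its probe sets placed siRNA lowest.

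PFKFB4 had 6.90 in vector, 5.84 in siRNA and 6.98 in control cells. It was 2.08-fold higher in vector than in siRNA cells and 2.21-fold lower in siRNA than in control cells, with vector and control nearly equal. Its other 3 probe sets, each with a mean below the filter, gave vector minus siRNA differences of 0.11, 0.023 and 0.42, and over all 4 the difference was 0.40 ± 0.47 (SD between probe sets).

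PDK1 encodes a kinase that keeps pyruvate out of the mitochondrial oxidation step. Its brightest probe set gave 7.71 in vector, 7.18 in siRNA and 6.49 in control cells, highest in vector cells. The other gave 5.03 in vector, 4.59 in siRNA and 5.77 in control cells, highest in control cells. The direction against control was opposite between the probe sets (1.23 and -0.75 for vector, 0.70 and -1.18 for siRNA), while both placed vector above siRNA cells, by 0.53 and 0.43.

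Of the genes of the oxygen-sensing machinery, HIF1A and EGLN1 passed 2-fold in vector cells against control. HIF1A, the oxygen-regulated alpha subunit gene, had 11.73 in vector, 11.55 in siRNA and 10.60 in control cells. All 8 of its probe sets passed 2-fold for vector minus control, by 1.33 ± 0.12 on the log2 scale, and all 8 lay above 0 for siRNA minus control, by 0.83 ± 0.096 (SD between 8 probe sets). In siRNA cells 0 of the 8 reached 2-fold, and the brightest was 1.93-fold higher than control. Of all genes, 15.2% passed 2-fold for vector minus control, as HIF1A did. All 8 probe sets also placed vector above siRNA cells, by 0.18 to 0.79.

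EPAS1, the gene of the HIF-2 alpha subunit, had 9.17 in vector, 9.19 in siRNA and 9.01 in control cells. Its differences were smaller than the pooled probe set spread in each comparison, and its other probe set, below the filter, had the opposite sign against control. EGLN1, the main HIF prolyl hydroxylase gene, had 10.33 in vector, 9.64 in siRNA and 9.20 in control cells on its brightest probe set. Its other 2 probe sets gave 8.55 and 8.10 in vector, 7.78 and 7.19 in siRNA and 8.59 and 8.28 in control cells, which puts vector close to control and siRNA below both. The 3 probe sets, all with names ending in _x_at or _s_at, thus disagreed on the comparison with control. They placed vector above siRNA cells by 0.69, 0.77 and 0.90.

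EGLN3, the hydroxylase gene most strongly induced by HIF in many cells, had 7.28 in vector, 6.78 in siRNA and 7.62 in control cells. A second probe set gave 6.68 in vector, 6.47 in siRNA and 6.62 in control cells, and the dimmest gave 3.23 in vector, 3.88 in siRNA and 3.27 in control cells, the only one of the 3 with siRNA highest. The size of the EGLN3 difference therefore rests on its brightest probe set.

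HIF targets were mostly highest in vector cells, with the control array in different places. Of 12 kept, 11 were higher in vector than in siRNA cells, where 52% of all genes were, with a median of 0.52. The siRNA array was lowest for 7, where 32.5% of all genes had it lowest, and the control array for 4, a share near the 35.5% of all genes. The medians were 0.36 for vector minus control, against -0.18 over all genes, and -0.21 for siRNA minus control, close to the -0.17 over all genes. The remaining one was ADM, which encodes the vasodilator peptide adrenomedullin. It had 10.62 in vector, 10.67 in siRNA and 10.97 in control cells, so both arms lay slightly below control and hardly differed from each other.

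NDRG1, a stress-responsive gene that is among the most hypoxia-responsive in carcinoma cells, was lower than control in both arms. It had 9.19 in vector, 8.80 in siRNA and 10.73 in control cells. This is 2.91-fold lower in vector and 3.81-fold lower in siRNA than in control cells. All 6 probe sets, of which only the brightest passed the filter, were below control in both arms, 5 of 6 at least 2-fold, with means of -1.32 ± 0.41 in vector and -1.34 ± 0.43 in siRNA cells (SD between probe sets). The brightest probe set put siRNA 0.39 below vector cells, but the mean over the 6 was 0.016 ± 0.28, so the arms differed by less than that spread. NDRG1 was the only member at least 2-fold lower than control in both arms.

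For the targets BNIP3, ANKRD37, MXI1 and DDIT4 the vector array was highest and the siRNA array lowest on the brightest probe set. BNIP3, a mitophagy receptor gene, had 11.89 in vector, 11.08 in siRNA and 11.89 in control cells, so vector and control were nearly equal. Its second probe set had a mean below the filter, with 3.70 in vector, 3.84 in siRNA and 4.27 in control cells. ANKRD37, a small ankyrin repeat gene that HIF-1 induces, had 7.09 in vector, 6.06 in siRNA and 6.83 in control cells, 2.04-fold higher in vector than in siRNA cells. Its other probe set lay below the lower quartile of each array, with a vector minus siRNA difference of 0.12.

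MXI1, which encodes an antagonist of MYC, had 11.16 in vector, 10.44 in siRNA and 10.51 in control cells. Its 5 probe sets agreed closely on vector minus siRNA, at 0.78 ± 0.088 (SD between probe sets), and all 5 were above control in vector cells. They did not agree on siRNA minus control. The dimmest of them, still above the filter, had control lowest, with 6.10 in vector, 5.43 in siRNA and 4.89 in control cells. DDIT4, an inhibitor of mTORC1 signalling, had 11.05 in vector, 10.46 in siRNA and 10.59 in control cells on 1 probe set. BHLHE40, a transcriptional repressor gene, had 6.30 in vector, 5.60 in siRNA and 6.54 in control cells on 1 probe set, again lowest in siRNA cells.

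KDM3A, VEGFA, BNIP3L and P4HA1 were lowest in control cells on the brightest probe set. KDM3A, a histone H3K9 demethylase gene, had 10.08 in vector, 9.62 in siRNA and 8.93 in control cells. All 3 of its probe sets passed 2-fold for vector minus control, by 1.14 ± 0.041, and 0.64 ± 0.11 higher in siRNA than in control cells (SD between 3 probe sets). Vector was above siRNA cells on all 3, by 0.45 to 0.58.

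VEGFA, the vascular endothelial growth factor gene, had 10.56 in vector, 9.96 in siRNA and 9.63 in control cells on the brightest of its 10 probe sets. For vector minus control 6 of the 10 lay above 0 and 4 below, from -0.45 to 0.93. For siRNA minus control 7 of 10 lay below 0, against the brightest one. Vector was above siRNA cells on 9 of 10, by 0.47 ± 0.33 on average.

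BNIP3L, which encodes a mitophagy receptor related to BNIP3, was split between probe sets only for siRNA minus control. Its brightest probe set gave 10.89 in vector, 10.67 in siRNA and 9.36 in control cells. The other 5 gave vector minus control differences between 0.55 and 0.61 and siRNA minus control differences between -0.090 and -0.0011. So the 2.47-fold higher signal in siRNA than in control cells was found on 1 of 6 probe sets, while all 6 put vector cells above both of the others.

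P4HA1 and P4HA2 encode catalytic subunits of collagen prolyl 4-hydroxylase, with 1 probe set each, and they went opposite ways. P4HA1 had 9.39 in vector, 9.24 in siRNA and 8.83 in control cells, on a probe set with a name ending in _s_at. P4HA2 had 8.60 in vector, 8.31 in siRNA and 9.30 in control cells, and its siRNA minus control difference of -0.996 was just short of 2-fold. CA12, a carbonic anhydrase gene, was below the filter at 4.60 in vector, 4.74 in siRNA and 5.25 in control cells, and all 5 of its probe sets were below control in both arms. Most genes were so without the filter, where only 32.9% of 18132 genes lay above control in vector and 34.2% in siRNA cells.

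**Figure D3:**
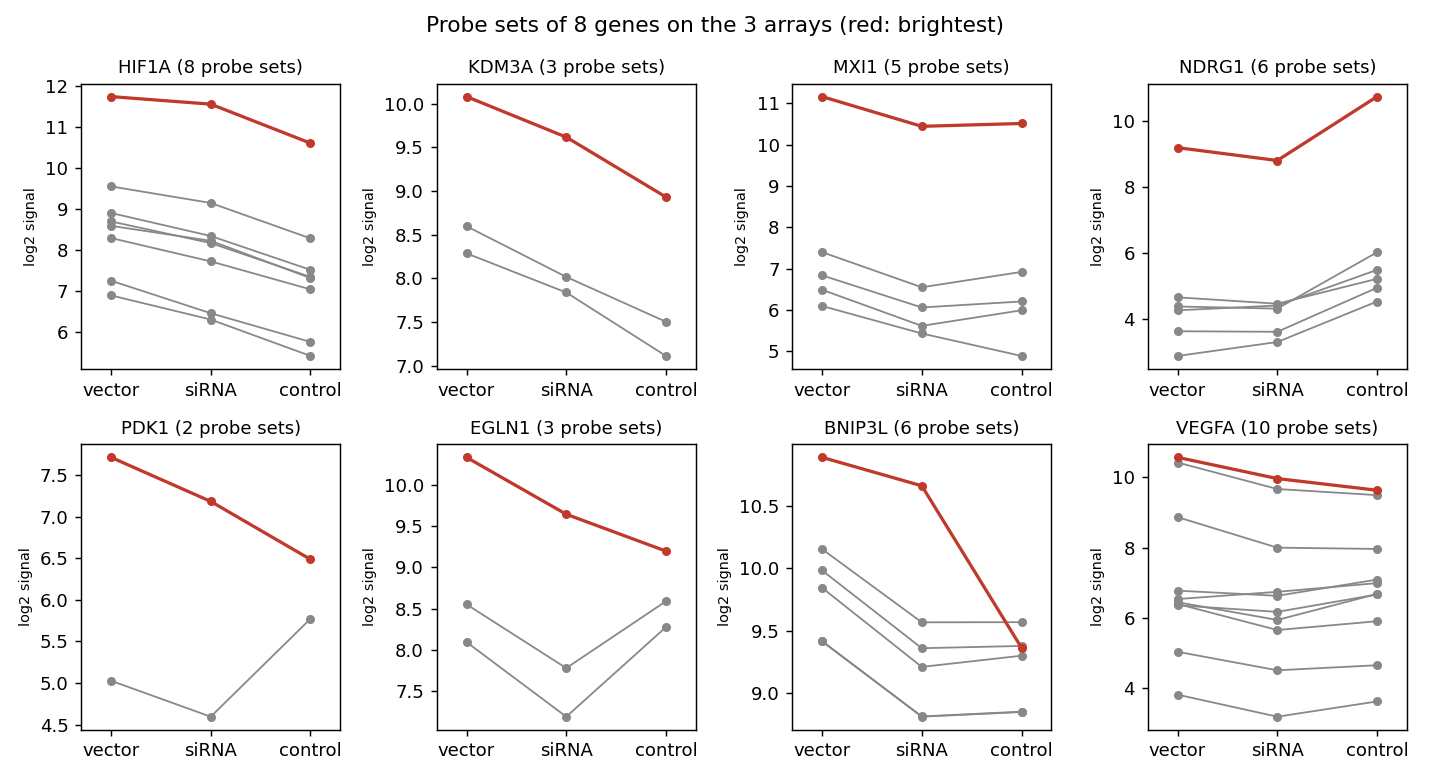
Log2 signal (y axis) of every probe set of 8 genes in vector, siRNA and control cells (x axis), with the brightest probe set in red and the others in grey. The lines of HIF1A and KDM3A run parallel with control lowest and those of NDRG1 have control highest. For MXI1, PDK1, EGLN1, BNIP3L and VEGFA the red and some grey lines place control differently.

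Under all alternative probe set and scaling choices that left the gene in, 33 of 36 members kept their vector minus siRNA sign. This held for 26 of 36 in the vector to control comparison and 28 of 36 in the siRNA to control comparison. For vector minus siRNA, PFKL, EPAS1 and ADM changed sign and PFKM kept a negative one. Without the _x_at and _s_at probe sets only 24 members were left, so the rest did not face that choice. Some kept signs rest on values near 0, such as 0.016 for NDRG1 and 0.018 for EGLN3 with the mean over probe sets. Of the 100 member probe sets with a mean at or above the filter, 95 were higher in vector than in siRNA cells, where 54.5% of all 22734 such probe sets were. Their median was 0.40, against 0.029 over all. For siRNA minus control 79 of the 100 lay below 0, where 56.6% of all did, and for vector minus control 59 of the 100, where 56.0% did. Probe sets of one gene share their target and are not independent.

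The members had high signals, and differences against control varied with signal. When the 10917 genes were cut into 4 equal bins by mean signal, 24 of the 36 members lay in the highest bin. There the median of all genes was -0.052 for siRNA minus control, -0.033 for vector minus control and 0.021 for vector minus siRNA. In the lowest bin it was -0.29 for siRNA minus control, -0.38 for vector minus control and -0.043 for vector minus siRNA. The members' siRNA minus control median of -0.47 was thus further from the median of genes of high signal than from that of all genes.

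Other genes of the pathways were taken from lists that hold none of the 40 genes. Among 25 other HIF targets above the filter, 22 were higher in vector than in siRNA cells, where 52% of all genes were, with a median of 0.33. At least 1.5-fold higher were 5, where 4.74% of all genes were, and at least 1.5-fold lower were 0, where 4.95% were. The most different were STC2, a secreted glycoprotein gene, with 7.72 in vector and 6.91 in siRNA cells, and HILPDA, a lipid droplet gene, with 8.75 in vector and 8.04 in siRNA cells. Against control, 1 of the 25, PLOD2, a collagen lysyl hydroxylase gene (1.39), was 2-fold higher in siRNA cells, where 14.9% of all genes were. In vector cells 2 were 2-fold higher, TFRC, the transferrin receptor gene (1.01), and GBE1, the glycogen branching enzyme gene (1.01), where 15.2% of all genes were. At least 2-fold lower in siRNA cells were 2, GYS1, the glycogen synthase gene (-1.25), and TMEM45A (-1.14), where 1.85% of all genes were.

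Neighbouring metabolic lists had smaller medians for vector minus siRNA. Of all genes, 52% were higher in vector than in siRNA cells, 4.74% at least 1.5-fold higher and 4.95% at least 1.5-fold lower. Of 31 oxidative phosphorylation genes 21 were higher in vector than in siRNA cells, with a median of 0.074 and none 1.5-fold apart. Of 28 genes of the pyruvate dehydrogenase complex and the TCA cycle 19 were higher, with a median of 0.12, and ACO1, the cytosolic aconitase gene (-0.84), was 1.5-fold lower in vector cells. Of 8 pentose phosphate genes 5 were higher, with a median of 0.087, and RPIA, the ribose-5-phosphate isomerase gene (0.73), was 1.5-fold higher in vector cells. Of 10 other glycolysis genes, among them LDHB, the second lactate dehydrogenase subunit gene, 4 were higher, with a median of -0.059 and none 1.5-fold apart. Against control, SUCLA2 (2.44 in vector and 2.11 in siRNA cells), DLD (1.93 and 1.86) and RPE (1.98 and 2.06) were 2-fold higher in both arms. In vector cells TIGAR (1.04) was 2-fold higher and ACO1 (-1.03) 2-fold lower than control. Of all genes, 15.2% were 2-fold higher and 2.05% lower in vector cells, and 14.9% were 2-fold higher in siRNA cells. Whether the lists differ from the members was not tested.

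Of 13 other genes of the HIF machinery 7 were higher in vector than in siRNA cells, where 52% of all genes were, with a median of 0.019. CITED2, which competes with HIF for its coactivators and is itself induced by HIF, had 6.44 in vector, 5.63 in siRNA and 5.60 in control cells. CUL2, the cullin of the VHL ubiquitin ligase, was higher than control in both arms (1.75 in vector and 1.58 in siRNA cells), and HIF1AN, the asparaginyl hydroxylase that silences HIF, was lower (-0.84 in vector and -1.01 in siRNA cells). Both differed from control in the same direction in the 2 arms, and the vector minus siRNA differences were 0.17 for each.

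**Figure D4:**
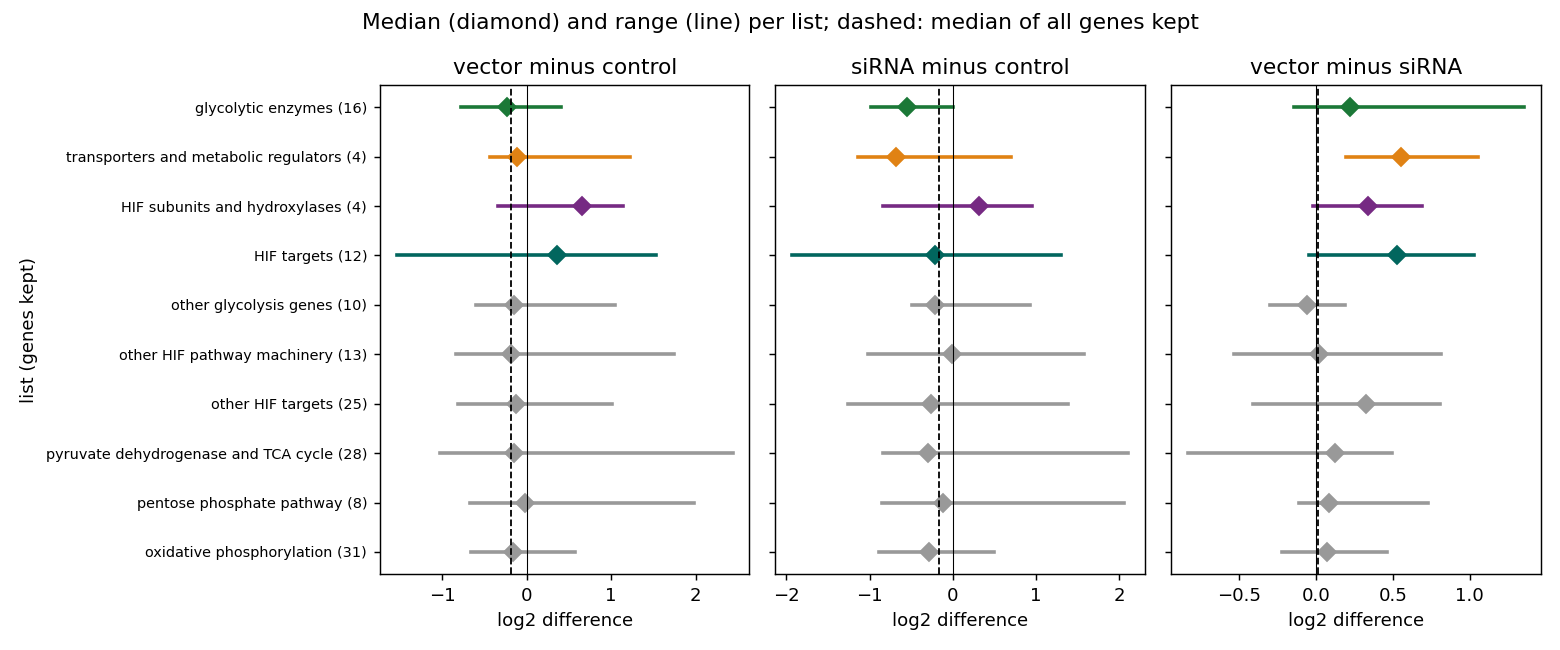
Median (diamond) and lowest to highest log2 difference (line) per list (y axis) for the 3 comparisons, with members coloured by role, other lists grey, and the median of all 10917 genes dashed. In the vector minus siRNA panel the 4 member groups have medians from 0.22 to 0.55, and the other HIF targets have 0.33.

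The medians over the members were computed again under each processing. The vector minus siRNA median stayed between 0.27 and 0.48 under the 8 alternatives run, and the siRNA minus control median between -0.68 and -0.30. The vector minus control median lay between -0.20 and 0.073 and changed sign on centring, so no direction is given to it.

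**Figure D5:**
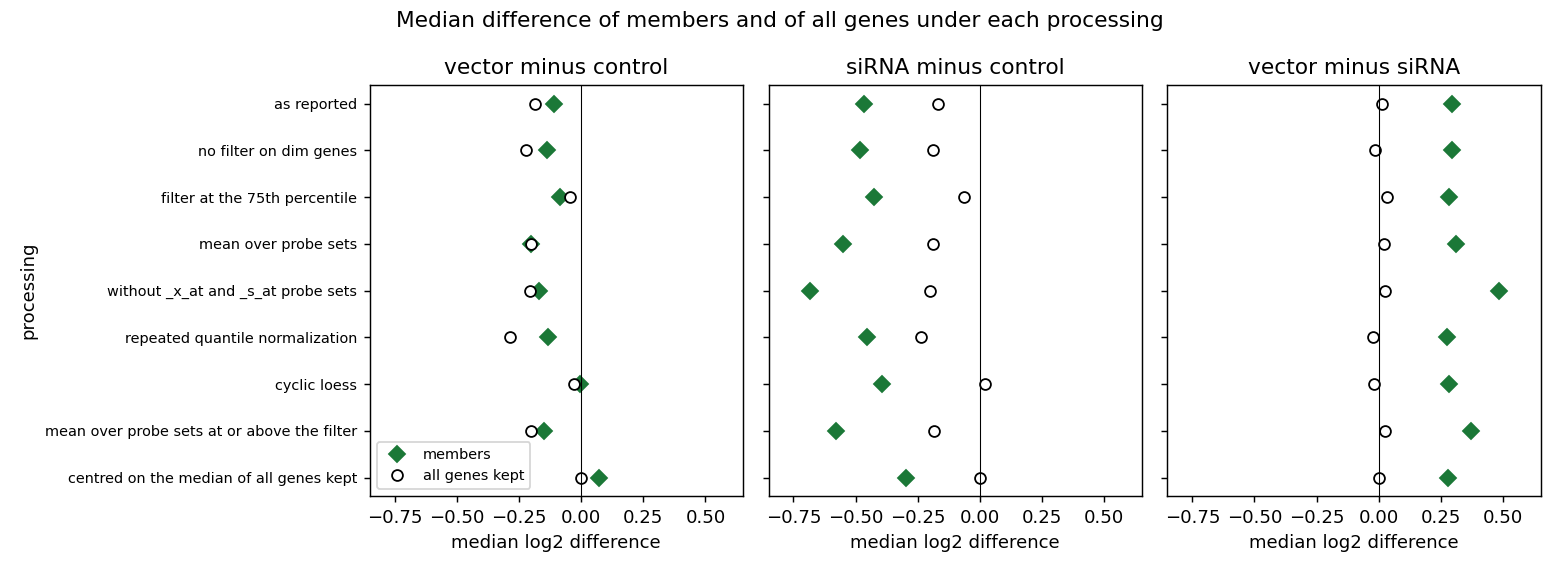
Median log2 difference (x axis) of the members (green diamonds) and of all genes kept (open circles) under each processing (y axis) for the 3 comparisons. The diamonds lie right of the circles in every row of the vector minus siRNA panel and left of them in every row of the siRNA minus control panel, while for vector minus control they lie on either side of the circles.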

How the data were processed

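Biotin-labelled total RNA was hybridised to oligonucleotide arrays with a 3' IVT kit, per the labels' protocols. The deposited table holds log2 probe set signals for 49293 probe sets, which the authors, per the submitters' processing notes, made with RMA. That they are log2 was read from their range. The RMA version, settings and background step were not stated there. This method compresses differences near background.

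Gene symbols came from the platform annotation, with 1832 probe sets of several symbols and 2473 without one left out. Log2 differences were taken between arrays without a test, and counted at 2-fold and 1.5-fold beside the percent of all 10917 genes past the same threshold. The members and lists were chosen with earlier results of these data known. Full values were given by rule for members at least 1.5-fold apart in a comparison, HIF1A, EPAS1, GAPDH, LDHA and members with discordant probe sets, and other members were named for completeness. From 6 other pathway lists (142 genes) those past 2-fold, or else the 2 most different, could be named, and a few named beside them were chosen after their values were seen. Alternatives were other filters, probe set rules, quantile normalization, cyclic loess (span 0.4, 3 cycles) and centring. The mean over probe sets at or above the filter was chosen after seeing the data. The gene step was tested on simulated arrays. Python 3.11.15, numpy 2.4.6, pandas 2.3.3, matplotlib 3.10.9, R 4.3.3 and limma 3.58.1 were used. Arrays have no read depth, and their number limits the precision.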

Additional observations from a re-analysis of the deposited data

How the results depend on the processing

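No paired analysis was possible because each group has 1 array. For vector minus control, 5 members were at least 2-fold higher and 1 lower. The higher count was 2 with the mean over probe sets, 3 without probe sets ending in _x_at or _s_at and 3 with the mean over probe sets at or above the filter, and the lower count was 0 without probe sets ending in _x_at or _s_at and 4 at 1.5-fold. For siRNA minus control, 1 was higher and 2 lower. The higher count was 0 with either mean over probe sets and without the _x_at and _s_at probe sets, 2 after cyclic loess or centring and 4 at 1.5-fold. The lower count was 1 with the stricter filter, with the mean over probe sets, without the _x_at and _s_at probe sets, after cyclic loess and after centring, 6 after repeated quantile normalization and 17 at 1.5-fold. For vector minus siRNA, 3 were higher and 0 lower. The higher count was 1 with the stricter filter, after repeated quantile normalization and after cyclic loess, 0 with the mean over probe sets and 8 at 1.5-fold, and the lower count was 0 throughout. The members' median for vector minus control was -0.0035 after cyclic loess and 0.073 after centring. For siRNA minus control it was -0.68 without the _x_at and _s_at probe sets, -0.30 after centring and -0.58 with the mean over probe sets at or above the filter. For vector minus siRNA it was 0.48 without the _x_at and _s_at probe sets, where 24 members were left. BNIP3L turned to -0.090 for siRNA minus control without the _x_at and _s_at probe sets. The cause of these changes was not tested, apart from the fewer genes left by the stricter filter and by leaving out probe sets. Cyclic loess moved the median of all genes to -0.029, 0.021 and -0.018 for vector minus control, siRNA minus control and vector minus siRNA.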

Other observations

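Probe sets annotated to a member together with another gene were left out of the report and number 8. A probe set shared by ENO1 and TMEM11 had log2 signals of 9.64 in vector, 9.21 in siRNA and 9.97 in control cells, and one shared by ENO1 and EDARADD had 10.18 in vector, 9.74 in siRNA and 10.69 in control cells. Both have the order of the single-symbol ENO1 probe sets, with siRNA lowest and control highest. The probe set shared by PFKFB4 and UCN2 had 3.50 in vector, 3.67 in siRNA and 3.89 in control cells, near the lower quartile of each array.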
